A study of Canis lupus familiaris with 6 samples.

Results

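Mitochondrial transport genes were followed in left ventricular RNA from dogs with and without cardiomyopathy. The set holds the SLC25 solute carriers, the uncoupling proteins UCP1, UCP2 and UCP3, the VDAC porins, and the TIMM and TOMM subunits of the protein import machinery. Members were taken by name: every probe set whose array annotation gave exactly 1 gene symbol of these families was used, without any filter, and a gene's value was the mean of its probe sets. This gave 139 of the 43035 probe sets of the array, for 68 of the 15115 genes that could be named. Of these, 44 genes were carriers (90 probe sets, uncoupling proteins included), 3 were porins (6 probe sets) and 21 belonged to the import machinery (43 probe sets).

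SLC25 proteins sit in the mitochondrial inner membrane and exchange nucleotides, phosphate, amino acids, carboxylates and cofactors between the matrix and the space outside it. Porins let the same metabolites through the outer membrane, and in heart muscle the ADP/ATP and phosphate carriers serve the high turnover of ATP. Nearly all mitochondrial proteins are made in the cytosol. They enter through the TOM pore and are then passed to the TIM23 complex, which pulls proteins with a presequence into the matrix, or by small TIM chaperones to the TIM22 complex, which inserts the SLC25 carriers themselves into the inner membrane.

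Control 1 was a Labrador retriever, male and 12 years old, control 2 a St. Bernard, female and 10 years old, and control 3 a Greater Swiss Mountain dog, male and 4 years old. All 3 dogs with cardiomyopathy were of 1 breed, Great Dane: affected 1 was female and 9 years old, and affected 2 and affected 3 were both male and 7 years old. No control was a Great Dane, so breed and disease cannot be told apart. All samples were pieces of heart left ventricle, and each array was taken as 1 animal, as the labels call the arrays biological replicates. In such bulk tissue, fewer cells of a type and less RNA per cell cannot be told apart.

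Each deposited value was a log2 difference from the median of that probe set over the 6 arrays, and differences between groups are given as affected minus control on that scale, with the standard error (SE) of the limma fit and n = 3 against n = 3 dogs. No expression level is left in such values. The presence of heart muscle could therefore not be read from the levels of its markers; 14 measured cardiomyocyte markers differed by -0.27 to 0.41 between the groups. On affected 1 and affected 3 the spiked poly-A control transcripts stood apart, with medians of 0.57 and 2.38 against -0.19 to -0.01 on the other arrays. The spiked bioC controls stood apart on the same arrays in the other direction, at -1.72 and -1.28 against -0.03 to 0.23. The number of arrays limits the precision of everything that follows.

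No member passed the adjusted threshold of 0.05 in the comparison of affected with control hearts (limma, Benjamini-Hochberg over all 15115 genes, smallest member adjusted p = 0.322), and no gene of the array did (0% called). At an unadjusted p under 0.05, 9 of 68 members were counted in limma, 5 higher and 4 lower, where 10.5% of all genes were. The same held for single probe sets, of which 0 of 139 member probe sets passed (limma, smallest adjusted p = 0.296) although 0.00233% of all probe sets were called; 12 member probe sets had an unadjusted p under 0.05, a rule that 10.9% of all probe sets met. Of the 68 members 58 differed by less than 0.5. A difference of 0.5 or more was seen in 10 of 68 members, where 9.61% of all genes had one.

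**Figure D1:**
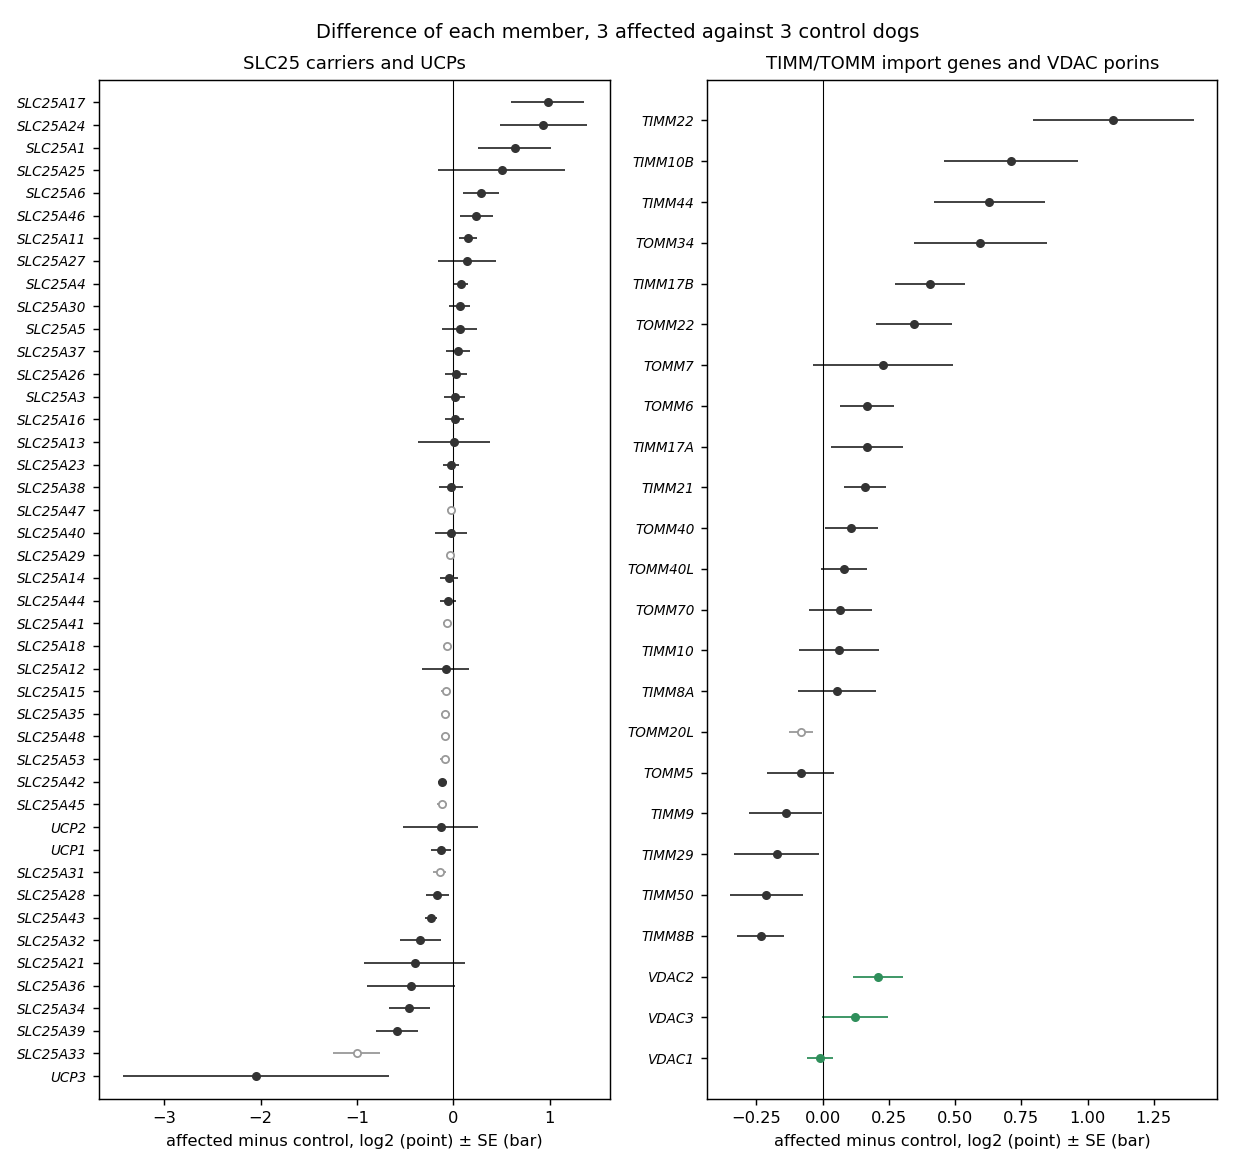
Affected minus control difference of each of the 68 genes on the log2 scale (x axis), with carriers in the left panel and import genes (black) and porins (green) in the right panel, on different x axes. Points are differences, bars are standard errors of the limma fit and open grey points are genes whose every probe set ran with the unexpressed control tags; UCP3 is lowest at -2.05 and TIMM22 highest at 1.10.

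UCP3 had the widest difference of all members. It encodes an uncoupling protein of muscle mitochondria that is linked to fatty acid use. On controls 1 to 3 its values were 1.12, 2.94 and -0.99, and on the affected arrays, in the same order of numbers, 1.17, -2.33 and -1.92. The 2 lowest values were thus those of affected 2 and affected 3, while affected 1 lay above 2 of the 3 controls and the groups overlapped. The difference was -2.05 (SE 1.38, limma adjusted p = 0.348, 95% interval -5.54 to 1.45), which placed UCP3 within the upper 0.364% of all genes by size. Both of its probe sets gave the same picture, at -1.90 (SE 1.26) and -2.20 (SE 1.55).

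The females held the highest UCP3 value of each group. Between the females, 1 dog against 1, the difference was -1.77, and between the males, 2 against 2, it was -2.19. A term for sex cannot change the difference of -2.05, because each group holds 1 female and 2 males. With that term the SE was 0.61 (unadjusted p = 0.0256, limma adjusted p = 0.357), where 10.8% of all genes had an unadjusted p under 0.05. Leaving out 1 array moved the difference by over 1.5 times: it was -1.09 without control 2 and -3.15 without affected 1.

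UCP2 is the next protein-coding gene beside UCP3 in the dog RefSeq annotation and encodes a widely expressed relative, abundant in immune cells. Its values were 1.02, 0.05 and -0.42 on the controls and 0.06, -0.14 and 0.32 on the affected arrays, with a difference of -0.13 (SE 0.39) that was smaller than the spread of the controls. UCP1, the uncoupling protein of brown fat, differed by -0.13 (SE 0.10) and its groups overlapped. The more distant relatives SLC25A14, SLC25A27 and SLC25A30 differed by -0.04, 0.14 and 0.06.

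**Figure D2:**
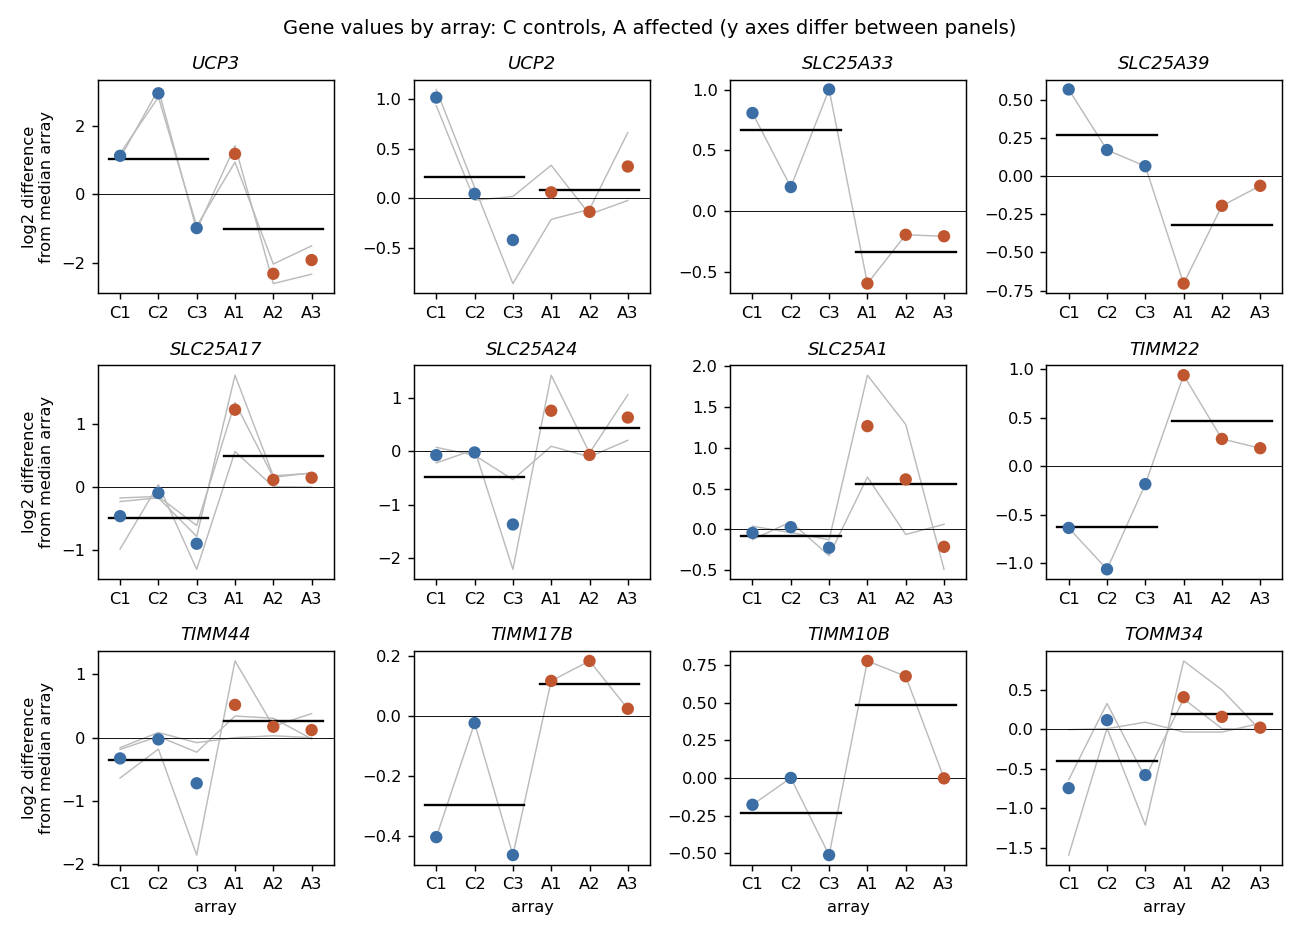
Values of 12 members on each array (y axis, log2 difference from the median array; scales differ between panels), with controls C1 to C3 in blue and affected A1 to A3 in orange. Dots are gene values, grey lines are single probe sets and black bars are group means; UCP3 is low on A2 and A3 but not on A1, and SLC25A33 and TIMM22 do not overlap between the groups.

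The carriers that serve ATP supply had small differences. SLC25A4, the ADP/ATP carrier of heart and skeletal muscle, had values of 0.03, 0.02 and -0.14 on the controls and 0.13, -0.03 and 0.06 on the affected arrays. The groups overlapped, and the difference was 0.08 (SE 0.07, 95% interval -0.10 to 0.27). SLC25A5, the isoform of dividing and many other cells, differed by 0.06 (SE 0.19) and SLC25A6, another ubiquitous isoform, by 0.28 (SE 0.19; 0.13 without control 3). The germ cell isoform SLC25A31 differed by -0.14. The phosphate carrier SLC25A3, which brings in the phosphate that ATP synthase uses, had values of 0.01, 0.22 and -0.16 on the controls and -0.01, 0.13 and -0.01 on the affected arrays. Its difference was 0.01 (SE 0.11, 95% interval -0.27 to 0.29). For SLC25A4 and SLC25A3 the intervals lie within -0.5 and 0.5, while for SLC25A5 and SLC25A6 they reach 0.53 and 0.76.

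Near-identical paralogs such as these can share probes. Of the 139 probe sets, 59 carried the suffix _s_at and 1 the suffix _x_at, which the array maker gives to sets whose probes can match several transcripts, so values of SLC25A4, SLC25A5 and SLC25A6 may not be fully separate. Of the 68 genes, 45 had more than 1 probe set. Of the 38 genes with more than 1 probe set that did not run with the control tags, 24 had differences of 1 sign in all of these and 14 of both signs, and in 0 genes did probe sets reach 0.5 in both directions.

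The malate-aspartate shuttle moves reducing power from the cytosol into mitochondria. SLC25A11, its oxoglutarate/malate carrier, had values of 0.01, 0.02 and -0.03 on the controls and 0.24, -0.05 and 0.26 on the affected arrays. Affected 1 and affected 3 were above all controls and affected 2 below them, and the difference was 0.15 (SE 0.10), or 0.25 without affected 2 and 0.09 without affected 3. Of its 3 probe sets 1 followed the unexpressed control tags (-0.10), and the others gave 0.28 and 0.27. SLC25A12 and SLC25A13, the aspartate/glutamate carriers that answer to calcium, differed by -0.08 (SE 0.25) and 0.01 (SE 0.37), and control 3 held the lowest SLC25A13 value at -0.95. SLC25A1, the citrate carrier, had values of -0.04, 0.03 and -0.22 on the controls and 1.26, 0.61 and -0.21 on the affected arrays. It was high on affected 1 and affected 2 but not on affected 3, and its difference of 0.63 (SE 0.38, limma adjusted p = 0.324) was 0.28 without affected 1 and 1.02 without affected 3. SLC25A21, the oxodicarboxylate carrier, differed by -0.40 (SE 0.52), with its highest value, 1.62, on control 2, and by 0.15 without that array. No probe set was named here for SLC25A20, the carnitine/acylcarnitine carrier.

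**Figure D3:**
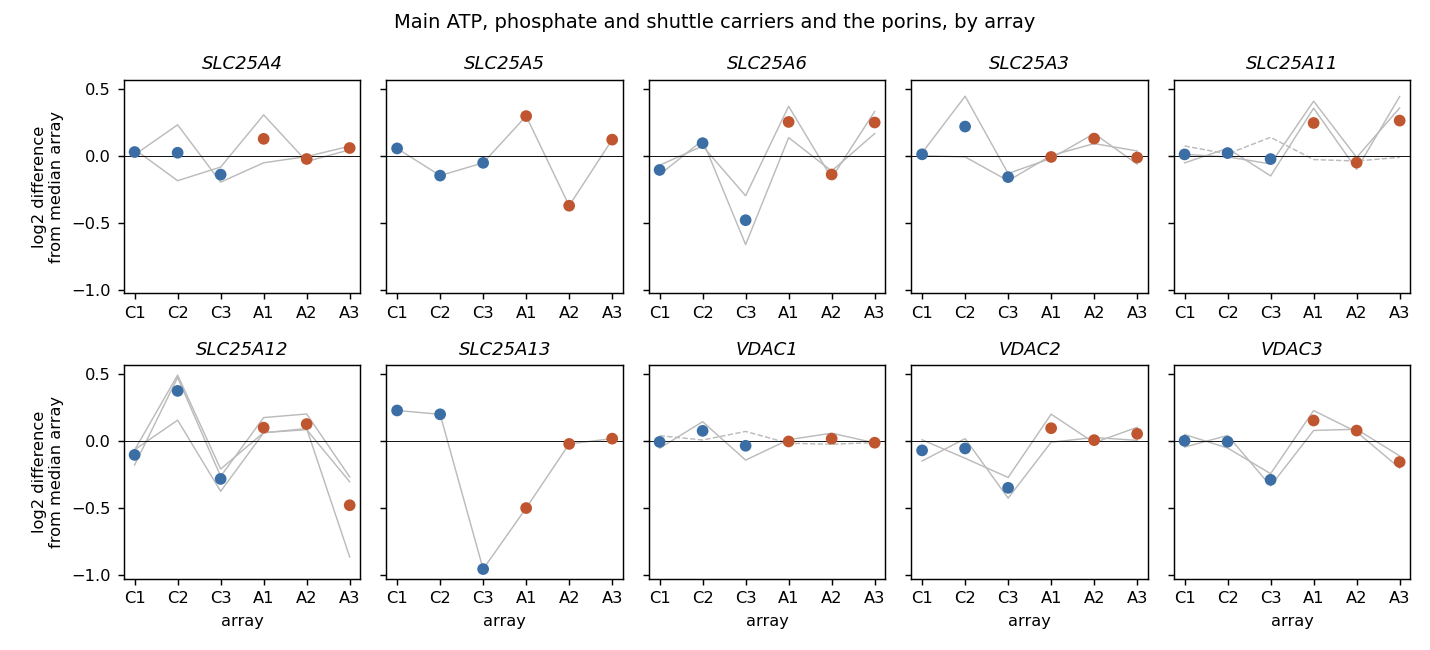
Values on each array of the main ATP, phosphate and shuttle carriers and of the 3 porins, as log2 differences from the median array on a shared y axis (blue, controls C1 to C3; orange, affected A1 to A3). Dots are gene values, grey lines single probe sets, dashed where they ran with the control tags. The dots of SLC25A4 lie between -0.14 and 0.13 and those of VDAC1 between -0.03 and 0.08. SLC25A3 runs from -0.16 on C3 to 0.22 on C2, and SLC25A13 is low on C3 at -0.95.

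Nucleotide and cofactor carriers held the carriers with the largest differences after UCP3, in both directions. SLC25A33, a pyrimidine nucleotide carrier, had values of 0.81, 0.20 and 1.00 on the controls and -0.60, -0.20 and -0.21 on the affected arrays. All affected values lay below all controls, and the difference was -1.002 (SE 0.24, unadjusted p = 0.00817, limma adjusted p = 0.322), a 2.003-fold lower value, from 1 probe set. It kept a size of -0.84 to -1.24 with any 1 array left out. Its relative SLC25A36 differed by -0.44 (SE 0.46) and by -0.01 without affected 1, and its groups overlapped.

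SLC25A17, a carrier of cofactors in the peroxisome membrane, had values of -0.46, -0.10 and -0.90 on the controls and 1.22, 0.11 and 0.14 on the affected arrays. Every affected value was above every control, although affected 1 stood far above the other affected arrays. The difference was 0.98 (SE 0.38, unadjusted p = 0.0466, limma adjusted p = 0.322), its 3 probe sets gave 0.88, 0.94 and 1.11, and it was 0.61 without affected 1. SLC25A24, an ATP-Mg/phosphate carrier that answers to calcium, had values of -0.07, -0.02 and -1.37 on the controls and 0.76, -0.07 and 0.63 on the affected arrays. Affected 2 lay with control 1, and the difference of 0.93 (SE 0.45, limma adjusted p = 0.322) was 0.49 without control 3. Its probe sets were unequal in size, at 0.24 and 1.62, so the value rests mainly on the larger. The related SLC25A23 and SLC25A25 differed by -0.02 (SE 0.08) and 0.50 (SE 0.66), the latter with 1.67 on affected 1 and a difference of -0.12 without it.

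The arrays that held the high SLC25A24 and SLC25A17 values also differed in markers of other cells. The 11 fibroblast markers had medians of -0.30, -0.07 and -1.35 on the controls and 0.99, 0.03 and 0.66 on the affected arrays, and 8 of the 11 were higher in affected hearts. The 9 macrophage and monocyte markers had medians of 0.70, -0.42 and -0.68 on the controls and 1.70, -0.11 and 0.07 on the affected arrays, with 9 of 9 above 0 as differences. For beta-actin, the gap between control probe sets at the 3' and 5' ends, each centred on its own median array, was shifted by 0.39 on affected 1 and 0.50 on affected 3, and by -0.26 to 0.07 on the remaining arrays; such a gap widens with RNA degradation. For GAPDH this shift was between -0.14 and 0.15 on all 6 arrays. The other marker lists had median differences of 0.16 (cardiomyocytes, 12 of 14 above 0), -0.08 (skeletal muscle), -0.28 (endothelium), 0.09 (smooth muscle and pericytes), -0.11 (lymphocytes), 0.27 (adipocytes), -0.07 (erythroid cells) and 0.97 (endocardium and valve). Their part in the values of SLC25A17 and SLC25A24 was not tested.

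Among the 4 carriers of iron and glutathione, SLC25A39, a mitochondrial glutathione carrier, had values of 0.57, 0.17 and 0.06 on the controls and -0.70, -0.19 and -0.06 on the affected arrays. The groups did not overlap, though control 3 and affected 3 lay close together, and the difference was -0.59 (SE 0.22, unadjusted p = 0.0414, limma adjusted p = 0.322). SLC25A40, its close relative, differed by -0.03 (SE 0.17) over 5 probe sets. The mitochondrial iron importers SLC25A28 and SLC25A37 differed by -0.17 (SE 0.12; -0.04 without control 3) and 0.04 (SE 0.12).

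Among carriers of less settled function, SLC25A43 had values of 0.07, 0.19 and 0.23 on the controls and -0.04, -0.10 and -0.07 on the affected arrays. The groups did not overlap and the difference was small, at -0.23 (SE 0.06, unadjusted p = 0.00896, limma adjusted p = 0.322). Of its 4 probe sets 1 followed the tags, and without that one the difference was -0.18 (SE 0.11, limma unadjusted p = 0.158). SLC25A34 differed by -0.46 (SE 0.21), with 0.76 on control 3 and 0.08 to 0.09 on the other controls, and by -0.23 without control 3; 2 of its 3 probe sets followed the tags. SLC25A46, an outer membrane protein of mitochondrial shape, differed by 0.24 (SE 0.17; 0.08 without control 3), and its groups overlapped. The 8 amino acid carriers all lay within -0.08 to 0.01.

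A lack of overlap was common among carriers, but so it was on the whole array. By unadjusted p under 0.05 in limma, 4 of 44 carriers were counted (1 higher, 3 lower), a share of 9.09%, near the 10.5% of all genes. Of 44 carriers 16 were lower in all affected arrays than in any control and 1 was higher, where 41.7% and 5.80% of all genes were. Many of these differences were small and ran with probe sets for unexpressed control tags. The median of the 17 tags was 0.06, 0.01 and 0.11 on the controls and -0.03, -0.03 and -0.01 on the affected arrays, and all 17 were lower in every affected array. Of the carrier probe sets, 25 of 90 (27.8%) followed the tags at a correlation over 0.9 across the 6 arrays, against 3 of 43 (6.98%) for import genes and 41.5% of all probe sets.

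In 11 carriers every probe set followed the tags (33.0% of all genes), and all 11 were among the 16 without overlap. In SLC25A15, SLC25A18, SLC25A29, SLC25A31, SLC25A35, SLC25A41, SLC25A45, SLC25A47, SLC25A48 and SLC25A53 the difference was between -0.02 and -0.14, about that of the tags (-0.08). SLC25A47, a carrier known from liver, and SLC25A29, a carrier of basic amino acids, had the smallest, both under the SE of their fits. SLC25A33 was the exception at -1.002, over a range far wider than that of the tags (0.15). Because the tags themselves were lower in affected hearts, a probe set that was lower there for any reason tends to correlate with them.

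**Figure D4:**
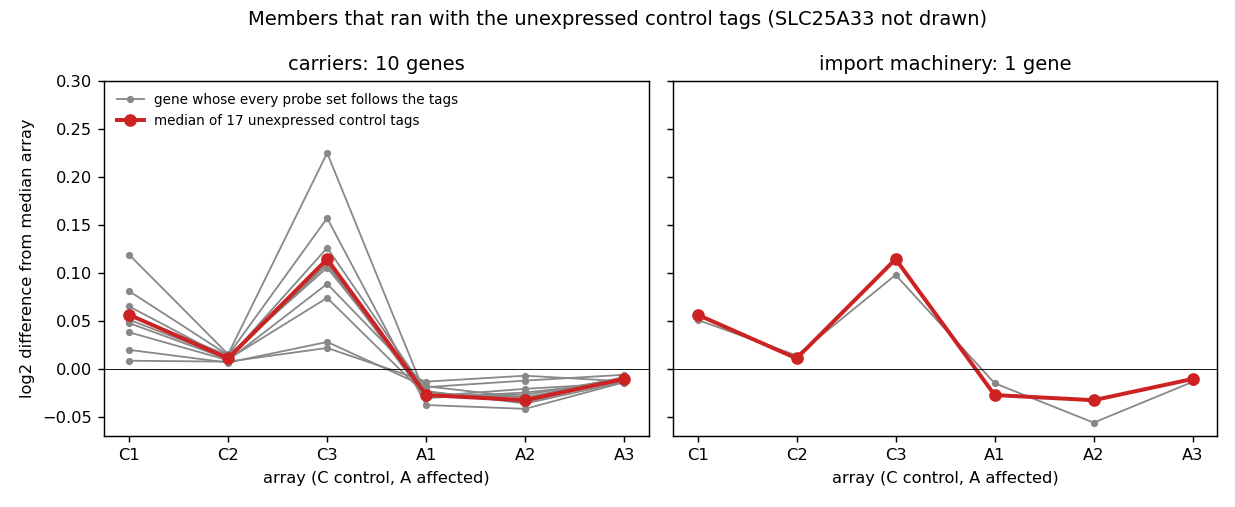
Values on each array (C1 to C3 controls, A1 to A3 affected; y axis, log2 difference from the median array) of genes whose every probe set ran with the unexpressed control tags, in grey, and the median of the 17 tags, in red. The 10 carriers and 1 import gene drawn are highest on C3 and slightly below 0 on the affected arrays, as the tags are. SLC25A33 is not drawn: it has the order of the tags among the controls but not among the affected arrays, and a much wider range.

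The porins had small differences. VDAC1, the main porin of most tissues, differed by -0.01 (SE 0.05, 95% interval -0.13 to 0.11). Of its 2 probe sets 1 followed the control tags (-0.06), and the other gave 0.04 (SE 0.09). VDAC2 had values of -0.07, -0.05 and -0.35 on the controls and 0.10, 0.01 and 0.06 on the affected arrays. The groups did not overlap and the difference was 0.21 (SE 0.09, limma adjusted p = 0.322). Its probe sets gave 0.19 and 0.23, and without control 3 it differed by 0.11. VDAC3 differed by 0.12 (SE 0.12), and its groups overlapped. Control 3 held the lowest value of all 3 porins.

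The import machinery had more genes above 0 than below. Of its 21 genes 15 were higher in affected hearts (71.4%), with a median difference of 0.11, where 35.0% of all genes were above 0 and the median of all genes was -0.07. The gap was smaller without probe sets that followed the tags, at 75% of 20 import genes and 55.8% of all genes above 0. With all probe sets, 4 import genes were higher and 1 was lower by unadjusted p under 0.05 in limma, where 4.88% and 5.64% of all genes were. Of the import genes 0 passed the adjusted threshold. Groups did not overlap in 6 of 21, 4 of them higher, against 47.5% of all genes (5.80% higher). The count at an unadjusted p depended on single arrays: it was 1 without affected 1 and 3 (1 higher, 2 lower) without control 3, while the count over all genes went from 1589 to 768 and 998. Without control 3, 57.1% of import genes were above 0. It was 0 when affected 2 alone was set against the controls by a term for affected 1 and affected 3, and 8 (7 higher) with age in the fit, where all genes gave 611 and 4050. Markers shared some of the import pattern: the fibroblast median, like the import median, was lowest on control 3 (-1.35) and highest on affected 1 (0.99). On affected 2 and affected 3 the order differed, at 0.03 and 0.66 for fibroblast markers and 0.06 and 0.01 for import genes. Of 14 cardiomyocyte markers 12 were above 0, with a median difference of 0.16 and their lowest median, -0.14, on control 3. Among affected arrays the cardiomyocyte median was highest on affected 3 (0.13), where the import median was lowest. The part of these markers in the import values was not tested.

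TIMM22, the channel subunit of the complex that inserts carriers into the inner membrane, had the largest difference. Its values were -0.64, -1.07 and -0.19 on the controls and 0.94, 0.28 and 0.19 on the affected arrays. All affected values were above all controls, and the difference was 1.10 (SE 0.30, unadjusted p = 0.0141, limma adjusted p = 0.322), or 2.14-fold, from 1 probe set. With any 1 array left out it lay between 0.86 and 1.32. TIMM29, a partner of TIMM22 in the same complex, had the opposite sign at -0.17 (SE 0.16; -0.03 without affected 1), and its groups overlapped.

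The small TIM chaperones, which carry SLC25 precursors across the space between the membranes, were mixed. TIMM10B, the chaperone that docks at TIMM22, had values of -0.18, 0.00 and -0.51 on the controls and 0.78, 0.68 and 0.00 on the affected arrays. Affected 3 lay level with control 2, and the difference was 0.71 (SE 0.25, unadjusted p = 0.0350, limma adjusted p = 0.322). TIMM9 and TIMM10, which form the main carrier chaperone, differed by -0.14 (SE 0.14) and 0.06 (SE 0.15). TIMM8A differed by 0.05 (SE 0.15) and TIMM8B by -0.23 (SE 0.09, unadjusted p = 0.0446, limma adjusted p = 0.322). All 4 probe sets of TIMM8B were below 0, and 2 of these followed the control tags.

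In the presequence pathway, TIMM44, which tethers the import motor to the TIM23 channel, had values of -0.33, -0.03 and -0.72 on the controls and 0.52, 0.17 and 0.12 on the affected arrays. The groups did not overlap, and the difference was 0.63 (SE 0.21, unadjusted p = 0.0282, limma adjusted p = 0.322). Its 3 probe sets were unequal in size, at 1.49, 0.34 and 0.06. TIMM17B, a channel subunit, had values of -0.40, -0.02 and -0.46 on the controls and 0.12, 0.18 and 0.02 on the affected arrays, without overlap and with a difference of 0.41 (SE 0.13, unadjusted p = 0.0261, limma adjusted p = 0.322). Its alternative form TIMM17A differed by 0.17 (SE 0.14; 0.06 without affected 1) and TIMM21, which links TIM23 to the TOM complex, by 0.16 (SE 0.08). TIMM50, the presequence receptor, had the opposite sign at -0.21 (SE 0.14; -0.12 without control 2).

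In the outer membrane, TOMM22, the central receptor, differed by 0.35 (SE 0.14, limma adjusted p = 0.322), and affected 2 (-0.06) lay below control 1 (0.03) while affected 1 (0.29) and affected 3 (0.21) lay above all controls. TOMM70, the receptor for carrier precursors, differed by 0.07 (SE 0.12), and TOMM40, the pore, by 0.11 (SE 0.10). The small subunits TOMM5, TOMM6 and TOMM7 differed by -0.08, 0.17 and 0.23, and TOMM7 drew on affected 3 (0.85), without which it differed by -0.04. Without control 3 TOMM6 differed by 0.06. TOMM34, a cytosolic helper of import, differed by 0.60 (SE 0.25, limma adjusted p = 0.322). Its 3 probe sets gave 1.38, 0.44 and -0.03, so the value rests on the first. TOMM20L had only a probe set that followed the tags. No probe set was named here for TOMM20 or TIMM23.

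Set against each other, carriers and import genes differed by small amounts. The median over carriers was 0.05, 0.01 and 0.05 on the controls and -0.02, -0.03 and -0.01 on the affected arrays. The median over import genes was 0.03, 0.00 and -0.19 on the controls and 0.13, 0.06 and 0.01 on the affected arrays. Carriers minus import was thus 0.02, 0.01 and 0.23 on the controls and -0.15, -0.09 and -0.02 on the affected arrays, without overlap between the groups. No test is given for such list medians.

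The sign of the carrier median depended on how the arrays were scaled and which probe sets were kept. The carrier median was -0.05 as deposited, -0.01 after quantile normalization and 0.02 after array medians were subtracted, where 25 of 44 carriers were above 0 in place of 16. Subtracting array medians moves all genes of an array alike, and the share of all genes above 0 went from 35.0% to 48.9%. The import median was 0.11, 0.11 and 0.18 in the same settings, with 15 of 21 above 0 in each. When the 40% of probe sets that varied least were left out, 16 of 33 carriers and 14 of 19 import genes were above 0, with medians of -0.01 and 0.17, where 51.1% of all genes were above 0. The difference between the medians was -0.16 as deposited and after array medians were subtracted, -0.18 in that setting, -0.12 after quantile normalization and -0.10 without all probe sets that followed the tags. With 1 array left out the import median lay between 0.06 (without control 3) and 0.21 (without control 1), and the difference between the medians was -0.26 without control 1. Without all probe sets that followed the tags, 20 of 33 carriers and 15 of 20 import genes were above 0, where 55.8% of all genes were. By unadjusted p under 0.05 in limma 2 carriers (1 higher, 1 lower) and 4 import genes (4 higher, 0 lower) were then counted, where 9.12% of all genes were (6.86% higher, 2.26% lower). The groups did not overlap in 2 carriers with higher and 5 with lower values, and in 4 import genes with higher and 0 with lower values, where 9.55% and 12.0% of all genes were so. Since following the tags itself depends on the groups, this setting leaves out lower genes more readily than higher ones. Splits at an unadjusted p moved too: import genes were 6 higher and 0 lower after array medians were subtracted, and all genes were 990 higher and 337 lower in place of 737 and 852.

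**Figure D5:**
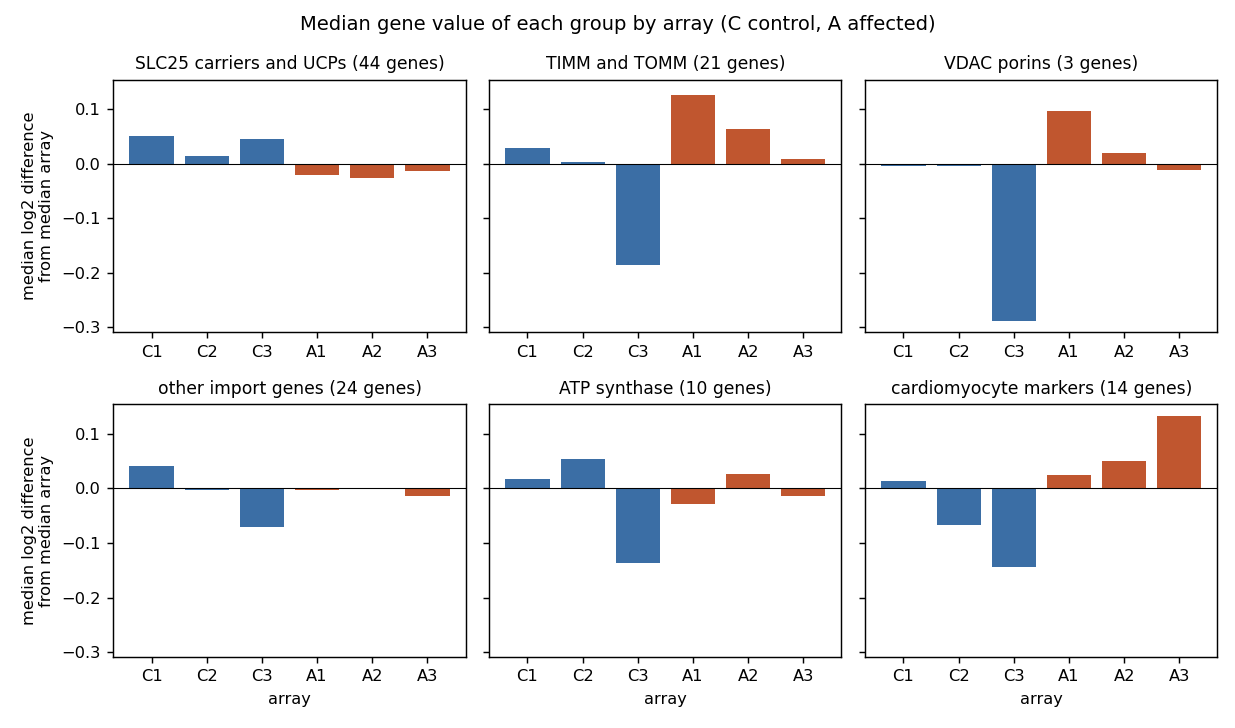
Median gene value of 6 groups on each array (bars; y axis, log2 difference from the median array; blue, controls C1 to C3; orange, affected A1 to A3). TIMM and TOMM genes are lowest on C3 at -0.19 and highest on A1 at 0.13, while the carrier median stays within -0.03 and 0.05.

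Related mitochondrial genes, from lists of genes whose symbols lie outside the naming rule of the set, also had 0 genes past the adjusted threshold in limma. Of 24 other import genes, 12 were above 0 (median -0.01), and 3 were higher and 2 lower by unadjusted p under 0.05, where 10.5% of all genes were counted. GRPEL1, a cochaperone of the import motor, differed by 0.34 (SE 0.10), and the presequence protease subunits PMPCA and PMPCB had opposite signs at -0.28 (SE 0.09) and 0.18 (SE 0.06). XPNPEP3, a mitochondrial aminopeptidase, differed by -0.23. Of its 3 probe sets 2 followed the tags, as did 1 of the 5 of PMPCA. MTX1, which helps to assemble outer membrane barrels such as the porins and is named here after its value was seen, had values of -0.26, -0.44 and -1.79 on the controls and 0.72, 1.61 and 0.26 on the affected arrays. Its groups did not overlap and its difference was 1.69 (SE 0.54, limma adjusted p = 0.322), the widest of that list.

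Among 19 other mitochondrial membrane genes, most of them for inner membrane transport, 4 were lower and 0 higher at an unadjusted p under 0.05 in limma. Of all genes 5.64% and 4.88% were. Without probe sets that followed the tags, 2 of 17 were lower. The 4 lower genes were MCU, the pore of the calcium uniporter (-0.53), the outer membrane protein MTCH2 (-0.15) and both subunits of the mitochondrial pyruvate carrier. MPC1 had values of 0.28, 0.17 and 0.26 on the controls and -0.08, -0.18 and -0.48 on the affected arrays, with a difference of -0.48 (SE 0.11, limma adjusted p = 0.322). MPC2 had 0.14, 0.18 and 0.04 on the controls and -0.24, -0.04 and -0.23 on the affected arrays, with a difference of -0.29 (SE 0.08, limma adjusted p = 0.322). In both genes all affected values lay below all controls, as in 41.7% of all genes. Neither had a probe set that followed the tags, and without such probe sets the share over all genes was 12.0%.

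ATP synthase, which works with SLC25A3 and SLC25A4, had a median difference of 0.01 over 10 genes, with ATP5F1A at -0.19 (SE 0.05) and the inhibitor ATP5IF1 at 0.18 (SE 0.07). Of the 3 probe sets of ATP5F1A 1 followed the tags. Without such probe sets the lowest difference among the 10 genes was -0.13. None of the 10 then had an unadjusted p under 0.05 in limma, where 9.12% of all genes had. The 11 regulators of mitochondrial biogenesis had a median of -0.03 and none had an unadjusted p under 0.05 in limma. POLRMT, the mitochondrial RNA polymerase, differed by 0.36 (SE 0.17), and NRF1, whose only probe set followed the tags, by -0.10 (SE 0.05). Of 12 partners of the outer membrane, TSPO differed by 0.74 (SE 0.23), with 0.92 on affected 1, and CPT1A, which makes acylcarnitines, by -0.24 (SE 0.16).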

How the data were processed

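RNA from left ventricle of 6 dogs (3 control, 3 affected) was measured on canine Affymetrix arrays, 1 array a dog. The deposited log2 values came from the authors' processing, in which GCRMA and MAS5 had a part, per the submitters' processing notes, with no role or version named; the log2 scale was read from the values. Every probe set had a median of 0 over the 6 arrays, so no level remains, and the depth of signal over background is unknown. The genome build was not given in the sources used here.

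Probe sets were named through GEO's platform annotation: 29254 had 1 gene symbol, 439 several and 13231 none, besides 111 control probe sets. All 68 member symbols were in the dog RefSeq gene table. Gene values were means of probe sets. limma 3.58.1 in R 4.3.3 was fitted with group alone on all 15115 genes, with Benjamini-Hochberg adjustment and moderated variance (4 residual and 1.28 prior degrees of freedom), and was tested on simulated data. Called means adjusted p under 0.05. p-values measure only the spread between these samples. Alternatives changed the filter, probe set summary, scaling, covariates (sex, age), replicate block and left-out array.

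Members, related genes and marker lists were chosen with earlier results of these data known. Named members were a list of core carriers, porins and import subunits, the largest differences without overlap per direction, the smallest p-values per class, and the highest and lowest gene per role, plus 2 genes with the smallest p-values per related list. Genes outside this rule were named to fill their role group, after values were seen. Ages were taken from the labels.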

Additional observations from a re-analysis of the deposited data

How the results depend on the processing

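No member passed the adjusted threshold in limma under any of the 18 alternatives, and 728 of 763 values of 43 named members kept their sign. None of the 35 with the opposite sign exceeded its SE on both sides. Much of this count was fixed in advance. Sex and replicate numbers are balanced between the groups, so terms for them cannot change a difference, and neither can a robust variance prior. For members named because their groups do not overlap, leaving out 1 array cannot change the sign. Counts at an unadjusted p under 0.05, and medians, moved as follows. When the 40% of probe sets that varied least were left out, the carrier median was -0.012, the median of all genes 0.012, and 985 of all genes were counted, 1 of them called. Without probe sets that follow the tags, 2 carriers and 924 of all genes were counted, with medians of 0.029 and 0.045. Leaving out only followers of small range, chosen after seeing the data, gave medians of -0.0021 and -0.017. The largest-range probe set per gene gave 2 carriers. With array medians subtracted the medians were 0.022 for carriers and -0.0022 for all genes, and after quantile normalization -0.0056 and -0.012. With age, 8 carriers, 8 import genes and 4050 of all genes were counted, with a carrier median of -0.032. A term for affected 1 and affected 3, whose spiked controls stood apart, left 1 carrier, 0 import genes and 611 of all genes (1 called), with a carrier median of -0.069. The cause of these shifts was not tested.

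Replicate numbers are shared between the groups. Same-numbered arrays deviated together weakly (correlations of 0.25, 0.16 and 0.06). Arrays of different number had lower correlations, from -0.23 to 0.03. Deviations within a group sum to 0, so these lower values largely follow from the first ones and are not a separate observation. Whether the numbers stand for a shared factor was not tested, and the main fit did not pair the dogs. A fit with the replicate block counted 2 carriers, 6 import genes and 1509 of all genes, with 0 called.

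With 1 array left out, counts ranged from 2 to 6 for carriers, 1 to 5 for import genes and 768 (without affected 1) to 4577 (without control 2) for all genes. Medians ranged from -0.078 to -0.045 for carriers and 0.064 to 0.21 for import genes, and their difference from -0.26 to -0.12. What limits all values is 3 dogs a group, breed that goes with disease, and a missing expression level.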
